A study of Mus musculus with 8 samples.

Results

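Specific-granule stage granulocytes with low Retnlg were 964 of the 29891 KL cells (c-Kit+ Lin- cells of the bone marrow) that were sequenced, or 3.23%. A cell was selected on its raw UMI counts (a UMI, a unique molecular identifier, counts each captured transcript once): Camp, Ngp and Ltf summed to at least 30, and Retnlg was at most 4. These 4 genes therefore chose the cells, and their levels are given as a description. Cells with the same granule sum and at least 5 UMIs of Retnlg are called late granulocytes here (580 cells). Cells with a granule sum under 30, at least 20 UMIs of Elane and at least 1 UMI of Cebpe are called progenitors (1664 cells).

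The libraries came from female C57BL/6 (B6) mice aged 3 to 4 months. SPF mice stayed in a specific-pathogen-free barrier facility, and CVT mice were moved from it to a conventional facility and shared cages for 1 month with mice born there. The labels give 10 mice per group, pooled by 2 or 3 mice into 4 SPF pools (pools 1, 2, 7 and 8) and 4 CVT pools (pools 3, 4, 5 and 6). Both groups were sorted for CD117 (c-Kit) and for the lack of CD3, CD4, CD8, CD45R, CD11b, TER119 and GR1. The pool is the replicate throughout, a pool cannot show the mice in it apart, and pools 1 to 4 hold mice 1 to 10 while pools 5 to 8 hold mice 11 to 20.

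Neutrophils fill their granules in waves as they mature. Azurophil granule proteins such as elastase and myeloperoxidase are made by promyelocytes, specific granule proteins such as lactoferrin and cathelicidin by myelocytes and metamyelocytes, and gelatinase granule proteins later still. The transcription factor C/EBP epsilon is known to be needed for the specific granule genes, and cells stop dividing as this wave ends. Camp encodes the cathelicidin antimicrobial peptide, Ngp a cystatin-like protein of neutrophil granules, Ltf lactoferrin, which binds iron, and Retnlg a resistin-like protein of more mature neutrophils.

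Camp (chr9:109847379-109849617, minus strand), Ngp (chr9:110419747-110423012, plus strand) and Ltf (chr9:111019271-111042767, plus strand) lie on the same chromosome (GENCODE M21, GRCm38). The stretches before the Ngp and Ltf starts are shown because 2 of the 3 genes that chose the cells hold a C/EBP word there. They are taken from the 250 bases before each RefSeq start on GRCm38 and stop where a GENCODE exon begins, and capitals mark TTGCNNAA or TTNNGCAA, which are each other's reverse complement, so that both strands were searched.
Ngp, chr9:110419558-110419746, plus strand: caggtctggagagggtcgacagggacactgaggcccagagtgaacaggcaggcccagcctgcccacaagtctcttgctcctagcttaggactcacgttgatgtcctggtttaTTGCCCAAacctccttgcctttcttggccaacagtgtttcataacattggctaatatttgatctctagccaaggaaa
Ltf, chr9:111019042-111019270, plus strand: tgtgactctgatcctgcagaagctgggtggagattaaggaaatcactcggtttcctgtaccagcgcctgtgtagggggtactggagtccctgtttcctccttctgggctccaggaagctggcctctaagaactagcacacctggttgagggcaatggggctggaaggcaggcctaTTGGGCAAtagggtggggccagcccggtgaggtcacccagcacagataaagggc

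The 250 bases before the Ngp RefSeq start held 2 words, the first at position -138 and the other in the part not shown. From its RefSeq start the Ltf word began at -75, and the 250 bases before the Camp RefSeq start held none. These RefSeq starts lie inside the GENCODE genes given above, and for Camp only 89 of the 250 bases lay before the GENCODE gene. Of all 32851 RefSeq promoters of that length, 9.56% held the word. It was in 8 of the 19 granule genes searched that had an entry, a set written with their levels known. A match is a description of letters and not of binding.

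Few KL cells had a granule sum near the limit of 30, which is the rule's own measure. The ranges counted here are of unequal width. Most cells had 1 to 4 UMIs (19230 cells), only 29 cells had 15 to 29, and 749 had 300 to 999. Among the selected cells the sum ran from 32 to 4134 with a median of 971.5, and only 36 of them were under 300. Just inside the limit, the 12 cells with a sum of 30 to 99 had a median of 110 Elane UMIs, and just outside it the 11 cells of low Retnlg with a sum of 15 to 29 had a median of 6. Retnlg had no such sparse range at its limit: 359 of the selected cells had 0 UMIs, 59 had 4, and 35 cells just outside had 5. The medians of the granule sum in those last 2 sets of cells were 776 and 938.

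**Figure D1:**
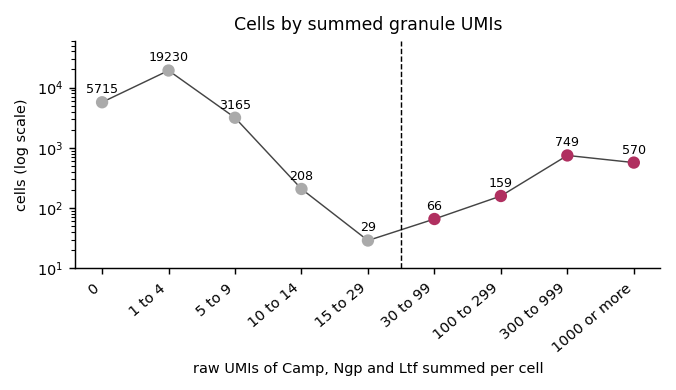
Number of KL cells (log axis) by the summed raw UMIs of Camp, Ngp and Ltf per cell, over all 8 pools, with each count printed and the limit of 30 dashed. The ranges are of unequal width, and the counts are 29 cells at 15 to 29 UMIs and 749 at 300 to 999.

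Depth per pool ran from 19041749 to 59812346 UMIs. A selected cell held a median of 7860 UMIs and 1604.5 genes, against 16833.5 UMIs in a progenitor and 5793.5 in a late granulocyte. The median UMIs of the selected cells lay between 5941 in SPF pool 1 and 9499.5 in CVT pool 3. Among all cells, 522 of 29365 barcodes occurred in more than 1 pool, and 29 selected cells had such a barcode, none of them selected in both pools. No doublet caller was run, and 73 selected cells (7.57%) carried at least 5 UMIs of erythroid, B cell, basophil and mast cell, or megakaryocyte markers. Erythroid cells (at least 3 UMIs of Car1, at least 1 of Ermap and a granule sum under 30, which caps their Camp) had 97.1 CPM of Camp (counts of a gene scaled to the UMI total of the cells summed in a pool, so that 10000 CPM is 1% of it, as a mean of 8 pools), against 63154 CPM in the selected cells.

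The neutrophil granule programme dominated these cells. S100a8 and S100a9, which encode the subunits of calprotectin, together with Camp, Ngp and Ltf held 40.2% of their UMIs (35.2% to 44.4% over pools), against 0.191% in progenitors and 34.5% in late granulocytes. S100a8 stood at 170517 ± 16852 CPM and S100a9 at 113784 ± 10535 CPM (SD, n = 8 pools). Such shares lower the CPM of every other gene in the cell. For several gene lists, differences from the progenitors are given on the full total and on one without Camp, Ngp, Ltf, Retnlg, S100a8 and S100a9. The median log2 ratio to progenitors over all genes moved from -0.81 to 0.03 between these totals.

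Of the 16 specific granule genes, 15 reached 20 CPM and all 15 were at least 2-fold higher than in progenitors in each of the 8 pools, with a median log2 ratio of 6.89. This was read against 282 of 4860 genes (5.8%) that were 2-fold higher in each pool and 1066 (21.9%) that were 2-fold lower, and Camp, Ngp and Ltf are among the 15 by selection. Cd177, Orm1 and Itgb2l, at 1.78, 0.63 and 0.55 CPM in progenitors, reached 20 CPM only in the selected cells. That limit set their direction, so the count of 15 is a description. Lcn2, which encodes the siderophore-binding lipocalin-2, stood at 11307, 9891, 10983 and 9252 CPM in SPF pools 1, 2, 7 and 8. It stood at 9746, 12230, 9685 and 9720 CPM in CVT pools 3 to 6. Every pool thus lay between 9252 and 12230 CPM, against 29.9 to 58.0 CPM in progenitors.

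Chil3, a chitinase-like protein, averaged 8460 ± 1294 CPM, Lyz2 (lysozyme) 13876 ± 1516 CPM and Wfdc21 5786 ± 692 CPM. Cd177, a neutrophil surface antigen, averaged 556 ± 76.9 CPM and had 1.78 CPM in progenitors. These genes were not used to choose the cells but are read in the same cells, so their levels describe the selection and are no test of it. Olfm4, another specific granule gene, stayed at 1.83 CPM.

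Azurophil granule genes were low beside them. Of 12, 9 were at least 2-fold lower than in progenitors in each pool and 1 was 2-fold higher, against 21.9% and 5.8% of all genes. On the total without the 6 genes 6 were lower and 2 higher, against 194 and 643 of 5430 genes. The 9 lower genes were Elane, Prtn3, Ctsg, Mpo, Ms4a3, Nkg7, Cst7, Ctsc and Gusb. Elane also chose the progenitors, so these counts describe that choice in part and are no test of it. Mpo, myeloperoxidase, averaged 508 ± 230 CPM against 5750 ± 407 in progenitors. Elane, neutrophil elastase, stood at 1086, 3114, 2908 and 2133 CPM in SPF pools 1, 2, 7 and 8 and at 2785, 600.1, 1433 and 1915 CPM in CVT pools 3 to 6. As a ratio, the highest pool exceeded the lowest by more for Elane than for Lcn2, S100a8 or S100a9.

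Serpinb1a, an inhibitor of those proteases, was at 984 ± 86.4 CPM against 463 ± 30.2 in progenitors and was not 2-fold higher in every pool.

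Fcnb, which encodes a ficolin of the lectin complement pathway, and Cebpe peaked at this stage by level. Fcnb averaged 977 ± 111 CPM, against 29.9 ± 19.6 in progenitors and 375 ± 175 in late granulocytes. Cebpe, the gene of C/EBP epsilon, stood at 880, 767, 639 and 688 CPM in SPF pools 1, 2, 7 and 8 and at 791, 753, 630.5 and 687 CPM in CVT pools 3 to 6. Its lowest pool lay above the highest pool of the progenitors (195 CPM) and of the late granulocytes (599 CPM). Among 12 transcription factor genes at 20 CPM, Cebpe, Id1 and Id2 were 2-fold higher than in progenitors in each pool. Cebpa, Irf8, Myb and Myc were 2-fold lower. Over all genes 5.8% were higher and 21.9% lower. On the total without the 6 genes 4 of 13 were higher and 3 lower, against 643 and 194 of 5430 genes. Cebpa, a factor of earlier granulocyte progenitors, averaged 12.02 CPM against 75.9 CPM.

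Other neutrophil functions were already on. Of 6 NADPH oxidase genes, Cybb, Cyba, Ncf1, Ncf4 and Rac2 were 2-fold higher than in progenitors in each pool, against 5.8% of all genes. Cybb, the catalytic subunit that makes superoxide, averaged 777 ± 80.6 CPM against 14.6 ± 2.29. The sort removed cells that stain for CD11b and GR1, yet Itgam, the gene of CD11b, averaged 162 ± 26.6 CPM and Ly6g, part of the GR1 antigen, 443 ± 71.2 CPM, against 7.15 and 1.72 CPM in progenitors. Kit, the gene of the antigen selected for, averaged 20.6 ± 4.01 CPM against 49.4 ± 7.08 in progenitors. These Kit levels are on the full total, where the median log2 ratio to progenitors over all genes was -0.81. RNA is not surface protein, and these levels do not say how the cells stained.

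**Figure D2:**
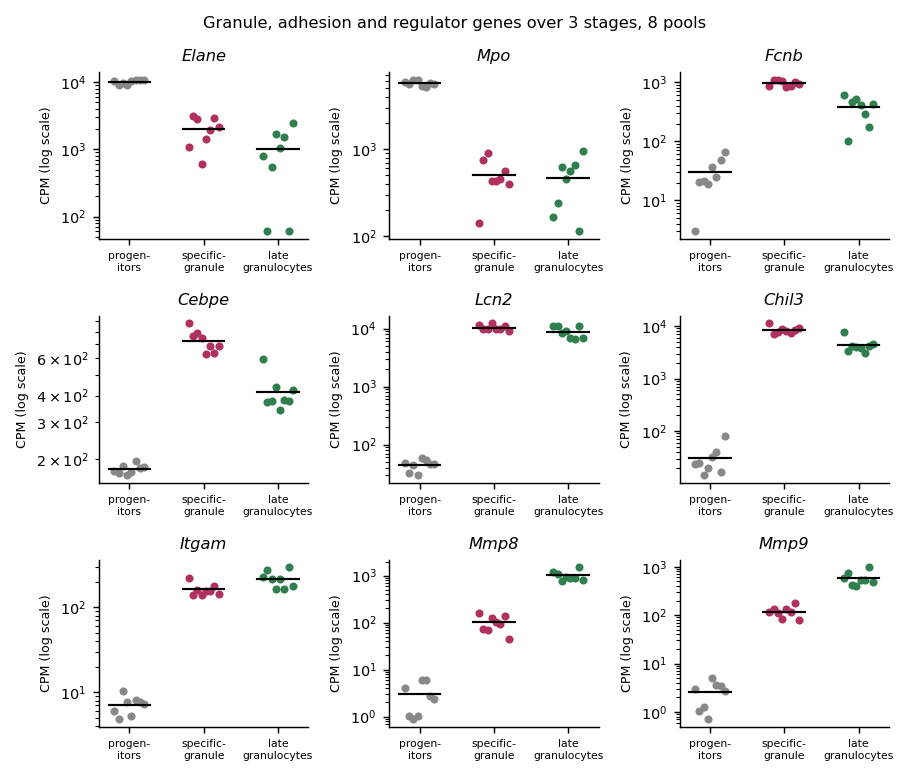
CPM (log axis) of 9 genes in progenitors, specific-granule stage granulocytes and late granulocytes, with a point for each of the 8 pools and a bar at their mean. Elane and Mpo are highest in progenitors, Fcnb and Cebpe in the middle stage, and Mmp8 and Mmp9 in late granulocytes, while Lcn2 has like levels in the last 2 stages.

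The late granulocytes differed far less. No gene of 3926 (0%) was 2-fold higher in the specific-granule stage in each pool, and 35 (0.891%) were 2-fold lower. They were led, by mean log2 ratio, by Retnlg itself, at 129 ± 21.9 against 8159 ± 3805 CPM, which the rule fixes, followed by Bst1, Mmp8, Asprv1 and Ccl6. Mmp8, neutrophil collagenase, stood at 163, 71.5, 136 and 43.8 CPM in SPF pools 1, 2, 7 and 8 and at 70.4, 127, 102 and 95.2 CPM in CVT pools 3 to 6. In late granulocytes its lowest pool was 752 CPM. Mmp9, the gelatinase that names the next granule type, averaged 119 ± 30.6 against 586 ± 187 CPM.

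Receptors differed gene by gene. The receptor list had 1 of 11 genes 2-fold lower than in late granulocytes in each pool, against 0.891% of all genes. Its sum averaged 1545 against 1628 CPM. Fpr1, a receptor for bacterial formyl peptides, averaged 9.14 ± 2.96 against 58.6 ± 22.8 CPM in late granulocytes, and Cxcr2, a chemokine receptor, 22.8 ± 7.33 against 91.3 ± 22.4 CPM. In all, 6 of the 20 gelatinase granule and late genes were 2-fold lower in each pool, against 35 of 3926 genes (0.891%). The 6 were Retnlg, which the rule fixes, Mmp9, Cxcr2, Fpr1, Clec4d and Ccl6. Markers of other cells also differed between these stages, with the summed dendritic cell list at 12.97 to 174 CPM in the pools of the specific-granule stage and at 66.6 to 1752 CPM in late granulocytes. Their part in the difference was not tested.

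The G2/M genes of cell division differed from progenitors by level. The summed G2/M list of 20 genes averaged 2144 ± 247 CPM (1922 to 2627 over pools), against 1067 ± 61.8 CPM in progenitors and 992 ± 369 CPM in late granulocytes. Ube2c, an anaphase ubiquitin enzyme, averaged 376 ± 84.8 CPM against 90.9 ± 14.9 in progenitors. Mki67, Plk1, Ube2c and Nusap1 were 2-fold higher than in progenitors in each pool of 18 genes that reached 20 CPM, against 5.8% of all genes, and 14 of 20 were on the total without the 6 genes, against 643 of 5430 genes. Against late granulocytes, 0 of 18 were 2-fold higher in each pool, as were 0 of all 3926 genes.

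The G1/S list, which holds the replication licensing genes, was at 1092 ± 212 CPM against 1964 ± 145 in progenitors. On the total without the 6 genes it was at 1818 against 1968 CPM. Of its 20 genes 7 were 2-fold lower in each pool on the full total and 1 on the total without the 6 genes, against 21.9% of all genes and 194 of 5430 genes, so these counts stand near the background. Summed ribosomal protein genes were 10.8% of UMIs against 32.9% in progenitors, and 180534 against 330121 CPM on the total without the 6 genes.

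Within the specific-granule stage, cells ordered by Ltf, a gene of the rule, formed a series. The bins, chosen after the data were seen, were quartiles of Ltf per 10000 UMIs with 241 cells each. Pools were spread unevenly over them: the highest quartile held 44.8% of the cells of SPF pool 7 and 14.1% of those of SPF pool 2. From the lowest to the highest quartile Lcn2 went from 4665 to 10608, 13340 and 15572 CPM. Ly6g went from 137 to 338, 549.9 and 962 CPM, and Cd177 from 251 to 517, 748 and 977 CPM. All 3 followed Ltf without a break.

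Summed over the cells of a quartile, azurophil genes fell in a single step. The azurophil list was at 13058 CPM in the lowest quartile and at 2118, 1681 and 1607 CPM in the others, and Elane went from 5779 to 196, 98.4 and 92.5 CPM. The lowest quartile holds the 36 cells with no Ltf UMI, which are rich in Elane and described below. Its sums thus rest in part on few cells. Fcnb went down gradually, from 1451 to 825, 687 and 516 CPM, while Cebpe stayed between 639.9 and 770.5 CPM in all 4. The G2/M list was at 2349, 2459, 2180.5 and 1003 CPM, so it dropped only in the highest quartile, whereas the G1/S list went down at each step, from 1575 to 1008, 821 and 576 CPM. Mmp8 was at 30.5, 25.4, 98.9 and 309 CPM, and Mmp9 at 37.5, 70.3, 138 and 328 CPM.

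Depth and markers of other cells moved along the same series. The median UMIs per cell were 11643, 8423, 7101 and 6031, and the share of cells with markers of another lineage was 17.4%, 9.96%, 2.905% and 0%. Without those cells the azurophil list was still at 16014 CPM in the lowest quartile and at 1607 CPM in the highest, and the G2/M list at 2566 and 1003 CPM. The quartiles share the cells' own total, so these orders are a description. Over the 964 cells, Spearman's rho of levels per 10000 UMIs was 0.69 for Ltf with Lcn2, 0.56 for Ltf with Ly6g and -0.39 for Ltf with Elane.

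A small early end was visible. The 36 selected cells with no Ltf UMI had 20110 CPM of Elane and 40365 CPM of the azurophil list, above the progenitors' 10121 and 29853 CPM, together with 31122 CPM of Camp and 9283 CPM of Ngp. They had 626 CPM of Lcn2 and 0 UMIs of Mmp8. The name of the stage thus describes most of the cells, while these few pair high azurophil RNA with little Lcn2. By Retnlg, the cells with 0, 1, 2, 3 and 4 UMIs had 57.4, 91.4, 75.4, 139 and 329.7 CPM of Mmp8.

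**Figure D3:**
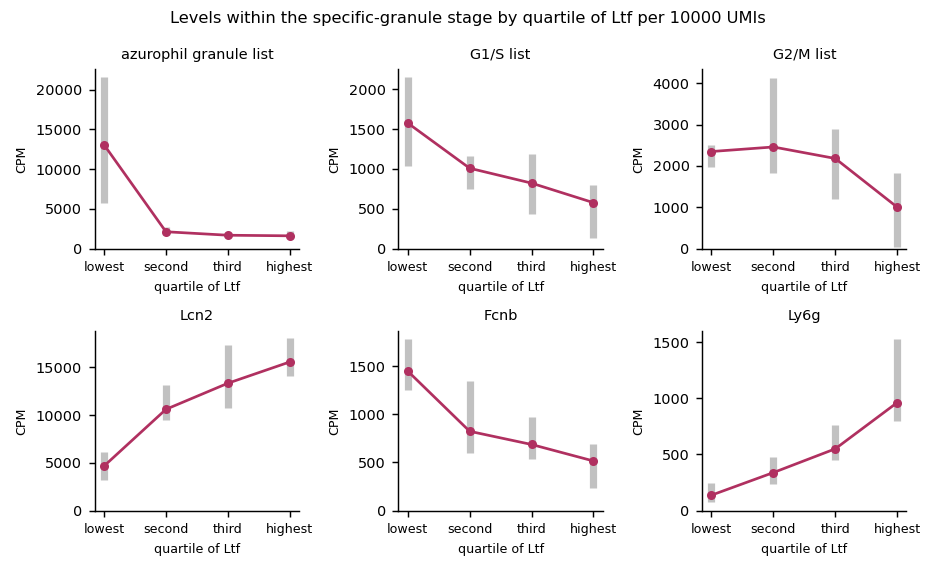
CPM of 3 summed gene lists and 3 genes in the quartiles of Ltf per 10000 UMIs among specific-granule stage granulocytes, with points for the cells of all pools and grey bars from the lowest to the highest of the 8 pools. The azurophil list falls from 13058 to 2118 CPM after the lowest quartile, and the G2/M list falls to 1003 CPM only in the highest.

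Whether co-housing changed how many of these cells the KL gate held was asked over pools. In SPF pools 1, 2, 7 and 8 they were 3.81%, 2.03%, 6.06% and 3.15% of cells, a mean of 3.76% ± 1.70 (SD, n = 4). In CVT pools 3 to 6 they were 1.94%, 1.34%, 4.26% and 5.03%, a mean of 3.14% ± 1.78. The groups overlapped, and the difference of -0.62 percentage points was within the spread of pools (two-sided exact permutation test over 70 regroupings, p = 0.6, adjusted p = 0.6 over 3 values). The lowest p that 4 pools against 4 allow is 0.0286. Without SPF pool 7 the difference was 0.14.

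The share also differed between the sets of mice. In pools of mice 1 to 10 the means were 1.64% in CVT and 2.92% in SPF, and in pools of mice 11 to 20 they were 4.64% and 4.61%. Per 100 cells with the granule sum, specific-granule stage cells were 66.5 ± 6.39 in CVT and 60.8 ± 6.24 in SPF pools (adjusted p = 0.343 by the exact permutation test). Within mice 1 to 10 these values were 71.0 and 62.7, and within mice 11 to 20 they were 61.9 and 58.9. Per 100 progenitors they were 54.9 ± 39.1 in CVT and 99.6 ± 51.4 in SPF pools (adjusted p = 0.343 by the exact permutation test). That ratio ran from 15.4 in CVT pool 4 to 162 in SPF pool 7, and was 21.5 against 84.8 within mice 1 to 10 and 88.3 against 114 within mice 11 to 20.

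**Figure D4:**
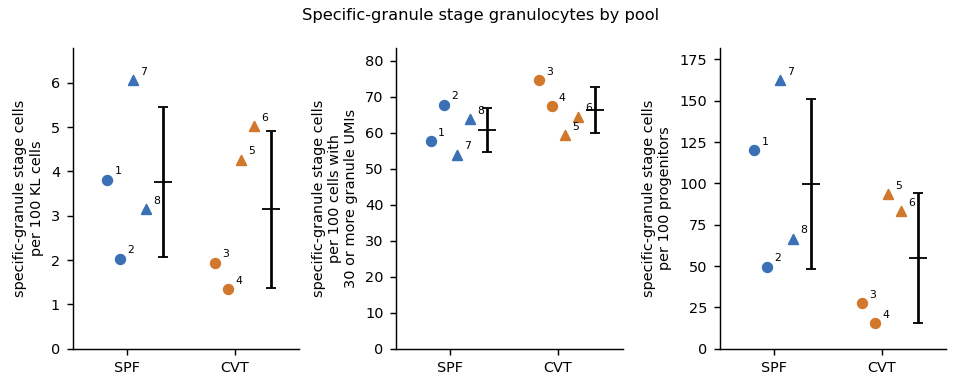
Specific-granule stage granulocytes per 100 KL cells, per 100 cells with at least 30 granule UMIs and per 100 progenitors, with a numbered point for each pool (circles, mice 1 to 10, and triangles, mice 11 to 20) and the mean with its SD (n = 4). SPF and CVT pools overlap in all 3 panels.

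Gene expression in the specific-granule stage did not separate the housing groups at the threshold used. Of 5585 genes tested with edgeR on UMIs summed per pool, 0 (0%) passed an adjusted p of 0.05, the lowest adjusted p was 0.601, and DESeq2 called 0. At an unadjusted p of 0.05, 113 genes were higher and 104 lower in CVT (217 in all, 3.89%), and in 116 genes (2.08%) the pools of the 2 groups did not overlap. Without SPF pool 1, edgeR called 1 gene, Car2, lower. With 4 pools a group these counts do not show that the groups were alike.

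The granule genes gave values near 0. S100a8 differed by -0.02 on the log2 scale (SE 0.126), Lcn2 by 0.01 (SE 0.127) and Cebpe by -0.04 (SE 0.130), and the direction of S100a8, Lcn2 and Cebpe turned when single pools were left out. Of 12 specific granule genes tested that the rule did not use, 5 were higher and 7 lower with a median of -0.03. Of 11 azurophil genes 4 were higher and 7 lower with a median of -0.14, and Elane differed by -0.44 (SE 0.307). The median over all genes tested was 0.0012.

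Cell cycle lists leaned down and ribosomal genes up, all uncalled. Of the G1/S genes 4 were higher and 16 lower in CVT with a median of -0.13, and of the G2/M genes 7 were higher and 13 lower with a median of -0.06. Of 83 ribosomal protein genes 80 were higher, with a median of 0.18. The summed ribosomal genes were 78538 CPM in SPF pool 1 and 90015 CPM in SPF pool 7 and lay between 105499 and 126701 CPM in the 6 other pools, and those 2 SPF pools had the highest share of the 5 leading genes, at 44.4% and 43.6%.

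Genes of lowest p are named although none was called. H2afy, a histone variant, was at 107, 189, 144 and 160.2 CPM in SPF pools 1, 2, 7 and 8 and at 256, 274, 168 and 240.5 CPM in CVT pools 3 to 6, a log2 difference of 0.65 (SE 0.149, edgeR adjusted p = 0.601). CVT pools 3, 4 and 6 were above every SPF pool and CVT pool 5 was not. Ccl9, a chemokine gene, averaged 50.7 ± 18.6 in CVT and 22.2 ± 10.5 CPM in SPF pools, a log2 difference of 1.18 (SE 0.273).

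Fabp5, a fatty acid binding protein, was at 12.97, 29.4, 18.5 and 28.2 CPM in SPF pools and at 46.2, 46.6, 31.9 and 45.1 CPM in CVT pools, a log2 difference of 0.87 (SE 0.201), and the groups did not overlap. Pdcd4, an inhibitor of translation, did not overlap either, at 41.9 ± 8.89 against 21.6 ± 9.37 CPM. Its nearest pools were CVT pool 5 at 31.9 and SPF pool 2 at 30.6 CPM. Ccl9 was at 334 CPM in progenitors, above its level here. Pf4, a platelet chemokine, owed its log2 difference of 2.82 largely to CVT pools 6 and 3, at 317 and 67.3 CPM, with the other 6 pools at 5.59 to 25.4 CPM.

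In the other direction, Ddx39, an RNA helicase, averaged 74.0 ± 3.38 in CVT and 107 ± 26.2 CPM in SPF pools, and Rpia, of the pentose phosphate pathway, 86.5 ± 4.62 and 119 ± 17.7 CPM. Both had every CVT pool below every SPF pool, as did Rasl11b, while Pla2g12a overlapped. For Ddx39 the nearest pools were CVT pool 3 at 78.8 and SPF pool 1 at 79.7 CPM. Pools of the groups did not overlap in 2.08% of all genes tested. Car2, an erythroid carbonic anhydrase, was at 352 and 325 CPM in SPF pools 2 and 8 and at 53.7 to 91.0 CPM in the 6 other pools. The summed erythroid list was likewise highest in SPF pools 2 and 8, at 689 and 741 CPM against 117 to 293 CPM elsewhere. Without mixed-lineage cells the Car2 difference turned from -1.34 to 0.35 on the log2 scale. Car2 is on the erythroid list that marks such cells. That run therefore removes cells for their own Car2 UMIs, and its Car2 value is no test.

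**Figure D5:**
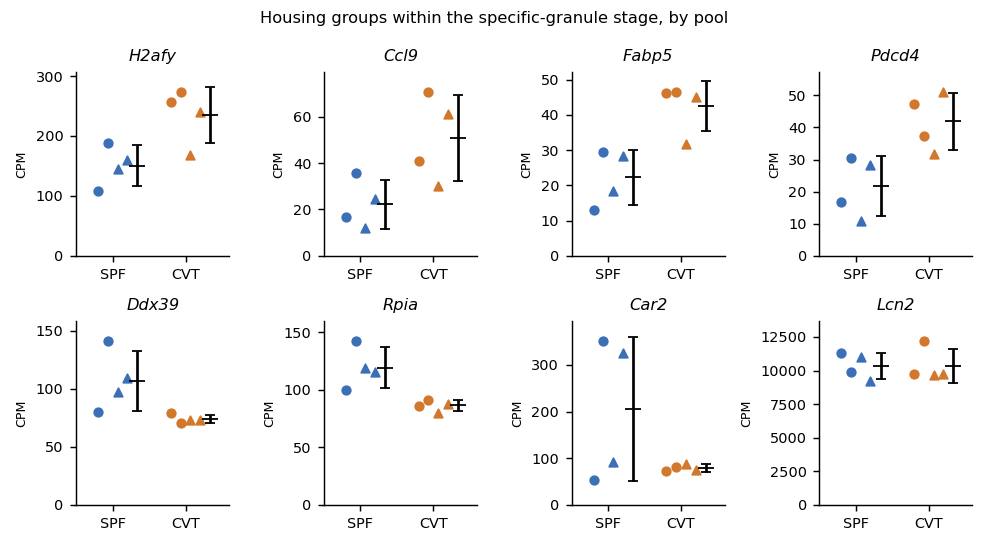
CPM of 8 genes in specific-granule stage granulocytes by pool (circles, mice 1 to 10, and triangles, mice 11 to 20) with the mean and SD of 4 pools a group. CVT points lie above SPF points for Fabp5 and Pdcd4 and below them for Ddx39 and Rpia, Car2 is high in 2 SPF pools, and no gene passed the adjusted threshold.

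Whether the housing difference itself varied with the stage was tested with a term for each pool. Against late granulocytes, edgeR called 0 of 6555 genes (0%), with 587 at an unadjusted p of 0.05 and 0 by DESeq2. That count rested on single pools, since 38 genes were higher and 45 lower without SPF pool 8, 1 and 4 without SPF pool 1, and 0 and 4 without CVT pool 6. Against progenitors, edgeR called 4 of 8523 genes (0.0469%), Car2, Hbb-bs, Hba-a1 and Hba-a2, all with a lower CVT minus SPF difference in the specific-granule stage. DESeq2 called 0, with log2 values of -1.70 for Hbb-bs, -2.63 for Hba-a1 and -1.73 for Hba-a2. Without mixed-lineage cells edgeR called 1, Hbb-bt, while the values were -1.58 for Hbb-bs, -2.40 for Hba-a1 and -2.10 for Hba-a2, and that of Car2 was -0.28. Car2 is on the lists that mark those cells, and the globin genes are not. Without SPF pool 7 it called Car2 and H2-Ab1.

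All 4 genes are of the red cell lineage. Hbb-bs, a beta globin, was at 20.4, 23.0, 2667 and 2440.4 CPM in SPF pools 1, 2, 7 and 8 and at 13.7, 18.6, 368 and 2202 CPM in CVT pools 3 to 6. Pools 1 to 4 were therefore at most at 23.0 CPM and pools 5 to 8 at 368 CPM or more, so globin differed between the sets of mice. Within each set both CVT pools were below both SPF pools. The summed cells of pools 1 to 4 held 536562 to 951651 UMIs each, so their levels rest on few UMIs of Hbb-bs. In pools 5 to 8, SPF pool 8 at 2440.4 and CVT pool 6 at 2202 CPM were close. In progenitors Hbb-bs ran from 3.47 to 8.90 CPM in pools 1 to 4 and from 130.04 to 303 CPM in pools 5 to 8. The part of globin from other cells in these calls was not tested beyond the runs without mixed-lineage cells.

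Markers of other cells the gate could hold varied in the specific-granule stage. Summed lists averaged 24.0 CPM for B cells, 26.7 for basophils and mast cells, 73.0 for monocytes, 79.2 for megakaryocytes, 39.2 for stem cells and 65.1 for eosinophils, the last almost all Ear2 (62.2 CPM). The megakaryocyte list reached 364 CPM in CVT pool 6. The T and NK cell list averaged 234 CPM, almost all Nkg7 (233.9 CPM), which is also on the azurophil list, and the dendritic cell list averaged 77.0 CPM. The erythroid list averaged 340 ± 239 CPM against 7362 CPM in erythroid cells, but the globin list averaged 2049 CPM (29.8 to 5647 over pools) against 1923 CPM in erythroid cells. Cd3e of T cells, Epx and Il5ra of eosinophils and Mcpt4 of mast cells were at 0 in every pool.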

How the data were processed

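Bone marrow cells were captured with 10x Genomics 3′ chemistry (v2). The deposited table holds raw UMI counts, which the authors made with Cell Ranger, for 27998 genes in 29891 cells. The submitters' processing notes name the build mm9, while the annotation and promoters used here are on GRCm38, for gene positions and sequences only. The version of Cell Ranger is not given in the sources used here. The number that ends each cell name was taken as the pool number of the labels. The cell with the fewest genes had 502, and no cell was removed here.

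The members and all gene lists were chosen with earlier results of these data known. UMIs were summed over the cells of a stage in each pool and given as CPM. A gene counted as different between stages where it averaged 20 CPM in either and differed by 2-fold in each of the 8 pools with at least 10 cells per pool, with no test, since the stages were selected on these counts. A gene under 20 CPM in its lower stage passed through the other stage, which set its direction. CVT and SPF pools were compared by edgeR 4.0.16 (R 4.3.3, limma 3.58.1) with TMM normalization, filterByExpr, the quasi-likelihood test and Benjamini-Hochberg adjustment at 0.05, with DESeq2 1.42.0 as an alternative. The edgeR interaction of housing and stage kept each pool as a term. Shares of cells were compared by two-sided exact permutation tests over 70 regroupings of the pools, adjusted over 3 values. Camp, Ngp, Ltf and Retnlg were not tested. Replicates are pools of separate mice.

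Named were genes of the lists, the 20 highest in the cells, the 10 most different from each neighbouring stage per direction, and for housing the genes of lowest p per direction, since none was called. Alternatives changed the limits of the rule, the cells kept, the normalization, the filter, the tool, the total behind CPM and the pools used. Quartiles of Ltf, the runs without mixed-lineage cells for the stages and the interaction, and the other alternatives for the stages were added after the data were seen. The steps were tested on simulated counts. Python 3.11.15, numpy 2.4.6, scipy 1.17.1 and pandas 2.3.3 were used. Depth limits low genes, since a pool's summed cells held few UMIs of them. A gene of the lists is not reported here.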

Additional observations from a re-analysis of the deposited data

Results flagged for a closer look

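In the CVT group, Lcn2 in the specific-granule stage was at 12230 CPM in pool 4, with the other CVT pools at 9685 to 9746 CPM. Fabp5 was at 31.9 CPM in CVT pool 5, with the other CVT pools at 45.1 to 46.6 CPM. Each of these pools stood apart from the rest of its group by Dixon's criterion for 4 samples. Of 42 groups tested 2 stood apart, and chance gives about 1 in 20.

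The CVT minus SPF difference was not the same in the specific-granule stage and in progenitors for 4 genes of the red cell lineage (edgeR interaction). The difference between stages was -1.72 on the log2 scale for Car2 (SE 0.248, edgeR adjusted p = 0.0012), -2.01 for Hbb-bs (SE 0.307, adjusted p = 0.0014), -2.42 for Hba-a1 (SE 0.375, adjusted p = 0.0014) and -1.70 for Hba-a2 (SE 0.288, adjusted p = 0.0046). DESeq2 called none of them. Summed globin was at 29.8 to 66.4 CPM in pools 1 to 4 and at 735 to 5647 CPM in pools 5 to 8. Without mixed-lineage cells edgeR gave -0.28 for Car2 (adjusted p = 0.999), -2.40 for Hba-a1 (adjusted p = 0.055), -2.10 for Hba-a2 (adjusted p = 0.201) and -1.58 for Hbb-bs (adjusted p = 0.999). Car2 UMIs help to mark those cells, so the Car2 value without them is no test.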

How the results depend on the processing

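Genes 2-fold higher than in late granulocytes in each pool numbered 4 with the rule per 10000 UMIs, 1 on the total without the 6 genes and 0 to 2 when single pools were left out. Against progenitors that total gave 643 higher and 194 lower. The CVT minus SPF share of cells ranged from -1.25 to 0.14 when single pools were left out and turned only without SPF pool 7. Its adjusted exact permutation p ranged from 0.371 to 0.943 over the alternatives, and both other ratios kept their direction with adjusted p from 0.257 to 0.771.

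Without a filter on low counts edgeR called 13 genes higher and 12 lower in CVT, 14 and 19 in the interaction with late granulocytes, and 10 and 13 in that with progenitors. When single pools were left out these counts ran from 0 to 0 and 0 to 1, from 0 to 38 and 0 to 45, and from 0 to 4 and 2 to 6. The 4 higher calls against progenitors came without CVT pool 5 and the 6 lower ones without SPF pool 1. DESeq2 called 0 in that interaction and edgeR 1 without mixed-lineage cells.

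Directions of uncalled housing differences turned for 6 genes. Car2 was 0.35 without mixed-lineage cells, which its own UMIs help to mark. Elane was 0.60 with equal numbers of cells per pool, and Top2a 0.0065 with Retnlg at most 2. S100a8 was 0.0215 with that limit, 0.0081 with cells of 1000 genes and at most 10% mitochondrial UMIs, and -0.118 to 0.0845 when single pools were left out. Lcn2 was -7.18e-05 by DESeq2, -0.0214 per 10000 UMIs, -0.11 with equal numbers, and -0.0877 to 0.0815 when pools were left out, and Cebpe -0.0940 to 0.0839. The cause was not tested. No paired analysis was possible because the SPF and CVT pools share no replicate number. With the set of mice as a block edgeR called 0 genes.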

Other observations

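Interferon-stimulated genes, not described above, were lower in the specific-granule stage than in late granulocytes. The summed list of 16 genes averaged 797 ± 80.1 CPM (SD, n = 8 pools) against 1706 ± 352 CPM, and 614 ± 83.0 CPM in progenitors. No gene of the 7 that reached 20 CPM was 2-fold lower in each pool, near the 0.891% of all genes that were. The median log2 ratio to late granulocytes was -0.94, against -0.05 over all genes. Along the Retnlg counts of the cells the list went from 718 CPM at 0 UMIs to 1068 CPM at 4 UMIs. In the housing comparison, 2 of its 6 tested genes were higher and 4 lower in CVT, with 0 called by edgeR and 0 at an unadjusted p of 0.05.

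The 3 genes of the rule did not rise together to the same degree. Over the 964 cells, Spearman's rho of levels per 10000 UMIs was 0.55 for Ngp with Ltf, 0.38 for Camp with Ngp and 0.31 for Camp with Ltf. Camp made up a median of 53.8% of the granule sum, Ngp 40.1% and Ltf 6.05%. Camp went from 46019 to 75160 CPM between the lowest and the third quartile of Ltf and was at 75246 CPM in the highest, while Ngp was at 27827, 51459, 58081 and 61502 CPM.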
